A study of Rattus norvegicus with 2 samples.

Results

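Antisense transcripts over known exons were taken from the transcript annotation that the authors assembled from rat femur RNA. A member was any transcript model that the comparison with the reference annotation had put in the antisense class, in which the exons of a model lie over exons of a reference gene on the opposite strand. This rule uses the position and strand of a model and no expression value. It gave 691 of 43391 models (1.59%), in 666 loci. The labels describe femur tissue of wild-type female Wistar rats at 16 weeks, with 1 sample for each operation. The operations were bilateral ovariectomy (OVX) and a sham operation (SHAM). The paper reports RNA sequencing of several rats per group, and the sample labels used here give no number of rats. Ovariectomy removes the ovaries and is a model of bone loss after loss of ovarian hormones, and the sham operation leaves them in place. A further label word, old for OVX and young for SHAM, was not used, and the groups were read here from the operation.

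The files hold positions and names of models, with no count, level or coverage for any sample. The sequencing depth is therefore unknown, no value has a replicate error, and OVX and SHAM could not be compared. Every value below is a description of 1 annotation, with no test. The annotation was merged from 2 assemblies, which the sources used here do not tie to a group or to rats, and they are called first and second from the order of their models. As a check of the tissue, names of 18 of 20 osteoblast and osteocyte markers had an assembled transcript, as had 7 of 16 osteoclast and macrophage markers, 13 of 16 neutrophil and myeloid markers, 9 of 16 erythroid markers, 10 of 16 lymphocyte markers and 11 of 20 skeletal muscle markers. Nfatc1, Dcstamp and Calcr were among the osteoclast names that were not found. On the list of histone and ribosomal genes 3 of 16 names were found, and Gapdh, Eef1a1 and Rplp0, which nearly all cells use, were not. A name that was not found therefore does not show that a gene was silent, and the counts do not compare cell types.

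An antisense transcript is read from the DNA strand opposite to that of a gene. It often starts at the gene's own promoter, within the gene, or beyond its 3′ end, where a neighbouring gene on the other strand may run into it. Such RNAs can pair with the sense mRNA, change the chromatin of the sense promoter or hinder the sense polymerase, and many have no known role. A library that does not keep strand cannot tell a gene's reads from those of its antisense partner. Whether these libraries kept strand is not given in the sources used here.

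The places where an antisense model lay over the start of a gene are shown first. The rule asks only that the first base of the gene is covered, so a model need not reach into the promoter. Such models covered the first base of 23 genes that had a transcript with the full intron chain of the reference. This class also takes in transcripts without introns, since 14.1% of its models had a single exon. Some of the 23, such as rCG_40536, had a partner transcript of 1 exon and were covered at both ends. Of the 23 genes, 5 had a symbol. They were Ep300, a histone acetyltransferase and coactivator, Nfib, a transcription factor, Ipo13, a nuclear import receptor, Zfand5 (named Zfp216 in the annotation), a zinc finger protein that binds ubiquitin, and Rnf145 (named RGD1309561), a RING finger protein. All 5 models had 1 exon and came from the first assembly. The Ep300 model was the longest at 1230 bp (chromosome 7, 109426542 to 109427771, minus strand), with 547 bp over Ep300 exons and 683 bp beyond the assembled start. The Ipo13 model had 638 bp, of which 33 bp lay beyond the start. The Zfand5 model had 367 bp, with 187 bp beyond. The Nfib model reached 13 bp beyond, and the Rnf145 model of 214 bp (chromosome 10, 28490472 to 28490685, minus strand) ended at the first base of the gene.

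The 250 bases before a gene's start were read from RefSeq for GRCr8, which need not be the build of the annotation, so genes were matched by name and not by position. For Ep300 and Rnf145 this window ended at the outermost start of the gene, and these windows are printed 5′ to 3′ on the strand of the gene, with a GC box (GGGCGG, searched on both strands) in capitals. The Ep300 window is chr7:114987607-114987856 and the Rnf145 window is chr10:29507529-29507778, both on the plus strand.
Ep300: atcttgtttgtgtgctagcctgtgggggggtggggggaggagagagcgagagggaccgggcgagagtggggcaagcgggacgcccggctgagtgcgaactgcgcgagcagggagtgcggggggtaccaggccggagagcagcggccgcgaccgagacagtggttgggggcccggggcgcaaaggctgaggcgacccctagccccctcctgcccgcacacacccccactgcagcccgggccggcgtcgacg
Rnf145: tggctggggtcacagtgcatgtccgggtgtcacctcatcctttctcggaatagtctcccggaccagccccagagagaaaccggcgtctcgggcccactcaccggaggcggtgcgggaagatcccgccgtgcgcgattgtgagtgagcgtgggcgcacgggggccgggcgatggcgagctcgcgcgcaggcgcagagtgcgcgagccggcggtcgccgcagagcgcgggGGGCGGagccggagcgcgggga
The Ep300 window held 24 CpG dinucleotides and no GC box, and the Rnf145 window held 35 CpG dinucleotides and 1 GC box. The windows of Zfand5, Ipo13 and Nfib, which lay 1701, 640 and 673 bp from the outermost start of their genes and are not printed, held 29, 26 and 12 CpG dinucleotides. Over all 33469 RefSeq promoter windows the median was 5 and the upper quartile 15, and 4 of these 5 genes were above the upper quartile. A GC box was found in 4 of the 5 windows and in 30.5% of all windows, and such a match is a description of letters and not a site. The 5 genes were limited to those with an assembled full intron chain and a symbol. All RefSeq windows were not limited in this way, so these sets are not alike.

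Antisense models were short and mostly without introns. Exon length ran from 200 to 10904 bp, with a median of 369 bp and quartiles of 265 and 636 bp. A single exon made up 516 models (74.7%), while 141 had 2 exons, 16 had 3, 13 had 4 and 5 had 5 or more. The median was 381 bp for single-exon models and 344 bp for spliced ones. The strands were evenly used, with 343 models on the plus strand and 348 on the minus strand. Together the models held 450014 bp of exon, or 393986 bp once overlapping models on a strand were merged.

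Other classes of the same annotation differed in shape. Models contained in a reference transcript (21663) had a single exon in 0.863% of cases and a median of 443 bp. Models inside introns (2042) had a single exon in 58.6% and a median of 266 bp, and models between genes (1616) had 45.7% and 319 bp. Among these 4 classes the antisense models thus had the highest share of single exons and the second longest median, after that of contained fragments.

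**Figure D1:**
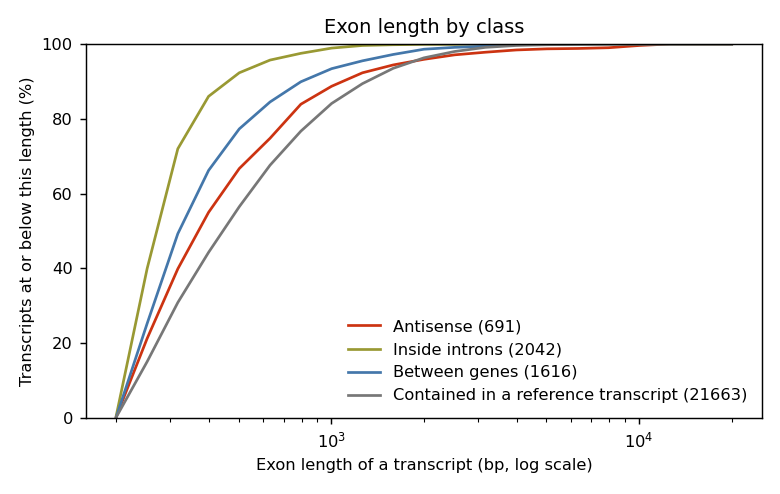
The plot of exon length by class gives the share of models (%) at or below each summed exon length (bp, log scale) for 4 classes, with the number of models in the key. The median of the antisense models, 369 bp, lies between those of models between genes (319 bp) and of contained models (443 bp), and the curves cross at the longest lengths.

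Few antisense models were recorded in both assemblies. There were 384 in the first only, 277 in the second only and 30 in both (4.34%). Of all 43391 models, 19314 were in the first only, 19181 in the second only and 4896 in both. The share in both was 4.85% for contained models and 5.76% for models with a new junction in a known gene. It was 7.18% for models between genes and 1.22% for models inside introns, against 50.2% for models that matched a reference transcript in all introns. Counted by locus, 42 of the 666 (6.31%) held a model from each assembly. The median exon length was 387 bp in the first assembly only, 326 bp in the second only and 520 bp in both.

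The longest models recorded in both assemblies included unspliced and spliced ones. A 4780-bp exon (chromosome 5, 143818977 to 143823756, minus strand) had Wasf2, which promotes actin assembly at the cell edge, as its reference gene and lay 213 bp beyond the assembled 3′ end of that gene. A model of 1964 bp on chromosome 20 (41435753 to 41437716, plus strand) was placed opposite the locus rCG_19955. A 2-exon model of 1381 bp on chromosome 9 (7572206 to 7573685, minus strand) overlapped rCG_45000 by 150 bp, and 1 of 1242 bp on chromosome 8 (31821425 to 31822666, plus strand) overlapped rCG_22749 by 260 bp. Names of this form are locus names of the reference annotation with no symbol. The last of these, of 1179 bp in 2 exons (chromosome 4, 138412299 to 138413502, minus strand), lay 582 bp beyond the assembled 3′ end of Marchf8. This gene (March8 in the annotation) codes for a membrane ubiquitin ligase.

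Of the 30 models in both assemblies, 10 overlapped a named transcript and 11 were spliced. Those with a symbol, named after their values were seen, included 1 of 284 bp that lay 207 bp before the assembled 5′ end of Plk1, a mitotic kinase. A model of 254 bp lay wholly over the first exon of Tmem123, and 1 of 848 bp covered the 3′ end of Pbxip1 with 248 bp of overlap. A 2-exon model of 324 bp covered the start of Vps11, a subunit of endosome tethering complexes, with 44 bp of overlap. Without a symbol for their reference genes (rCG_51723 and rCG_51948), a pair of 509-bp models stood on opposite strands of chromosome 2. They lay at 176329014 to 176329522 (plus) and 176336054 to 176336562 (minus). Whether they are copies of 1 sequence was not tested.

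The sense gene was then sought among the named transcripts of the same annotation. A partner was a named gene with at least 1 bp of exon overlap on the opposite strand, and 332 antisense models (48%) had at least 1. Of these, 321 had 1 partner, 9 had 2 and 2 had 3. The partners were 325 of the 12568 named genes (2.59%), and 316 of them had a single antisense model. The other 359 models (52%) had no exon of a named assembled transcript opposite them, although the comparison had placed each over a reference exon.

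Unpartnered models inside the span of any named opposite-strand gene were set apart first. The others were sorted by the reference gene that the comparison names. For 138 (20% of all members) the model lay beyond the assembled 3′ end of that gene, at a median distance of 1279 bp with quartiles of 510 and 4138 bp. A further 47 (6.8%) lay before the assembled 5′ end, at a median of 5233 bp. There were 53 (7.67%) inside the span of a named opposite-strand gene, which need not be the reference gene, between its assembled exons. For 121 (17.5%) the reference gene had no assembled named transcript. Models beyond the 3′ end were 89 in the first assembly only, 42 in the second only and 7 in both, and those before the 5′ end were 18, 26 and 3. The 3′ side thus held more models than the 5′ side in each assembly.

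**Figure D2:**
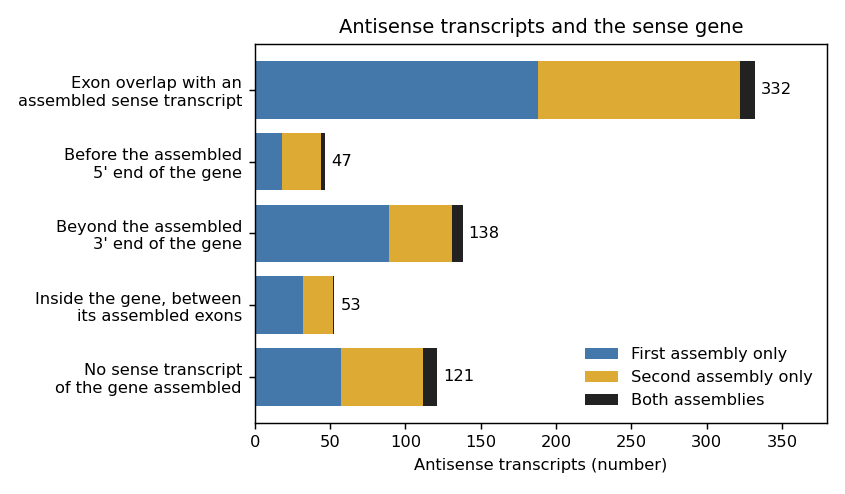
The plot of antisense transcripts and the sense gene gives the number of models in each of 5 positions, with bars divided by the assembly that held the model. Overlap with an assembled sense exon is the largest position at 332, followed by 138 models beyond the assembled 3′ end. The position inside the gene counts any named opposite-strand gene.

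Several unpartnered models lay near genes of bone, blood and chromatin, which were picked after their values were seen. Opposite the region past Sin3a, the scaffold of a histone deacetylase complex, stood a single-exon model of 1181 bp from the first assembly and a 2-exon model of 967 bp from the second. They lay 6778 and 6794 bp beyond the assembled 3′ end. Htra3, a secreted serine protease, likewise had 464 bp in the first assembly and 899 bp in the second, at 11090 and 11066 bp. These loci were thus assembled in both, though with models that differed.

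Distances here again run from assembled ends, and the comparison had placed each model over a reference exon. Among the models of 1 assembly, 746 bp lay 1415 bp past the assembled 3′ end of Cd163, the haemoglobin scavenger receptor of macrophages. Another model of 692 bp lay 675 bp past the assembled 3′ end of Rb1, the retinoblastoma tumour suppressor. The model of Vcan, a large matrix proteoglycan, had 210 bp and lay 5590 bp past the assembled 3′ end. Cd38, a surface enzyme that consumes NAD, had 255 bp at 645 bp. On the other side, 406 bp in 2 exons lay 415 bp before the assembled 5′ end of Lef1, a transcription factor of the Wnt pathway.

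Reference genes without an assembled named sense transcript included some best known from other tissues and some of blood cells. Examples chosen after the values were seen were Tshb, the beta subunit of thyrotropin (246 bp in 2 exons, first assembly), and Tg, thyroglobulin (425 bp, second assembly). Others were Igfbp2, which binds insulin-like growth factors (312 bp, second), Fgf1, a fibroblast growth factor (407 bp, first), and Cxcr5, a chemokine receptor of B cells (322 bp, second). The model of Cd14, the monocyte receptor for lipopolysaccharide, had 680 bp in the first assembly. Ovol1, a zinc finger factor of epithelia, had 311 bp in 4 exons. Lrp1b had 2 models of 226 bp, each with 2 exons. In this group 74 of 121 models had a single exon and 32 had a reference gene with a symbol, against 271 and 193 of the 332 partnered models.

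Where a partner was found, most of the antisense model lay over its exons. Overlap ran from 7 to 10760 bp with a median of 308 bp and quartiles of 203 and 594 bp, and 11 models overlapped by under 50 bp. The median model had 94.8% of its exon sequence over partner exons, and 129 (38.9%) lay there entirely. Of the 287979 bp of exon in partnered models, 74% was over partner exons, 10.3% in partner introns and 15.7% outside the partner.

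The last exon of the sense gene was the part most often overlapped. Set against the partner transcript with the largest overlap, 174 models (52.4%) overlapped the last exon, 71 (21.4%) the first, 9 (2.71%) both and 30 (9.04%) internal exons only, while 48 (14.5%) faced a partner transcript of 1 exon. Last exons are long, since in the 284 partner transcripts with 2 or more exons they made up 48.8% of the exon sequence. They held 67.6% of the overlap. First exons made up 12.9% of the exon sequence and held 12.4% of the overlap. Assembled transcripts can be fragments, so a last exon here is that of the assembled model.

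Along the assembled span of the partner, the middle of 143 models (43.1%) fell in the last of 5 equal parts, nearest the 3′ end, and that of 47 (14.2%) in the first. The parts between them held 16, 37 and 30 models, and 59 had their middle outside the span. Of 10 equal parts the last held 110 single-exon and 9 spliced models, against 33 and 4 in the first. Single-exon models were the majority in each of the 10 parts.

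**Figure D3:**
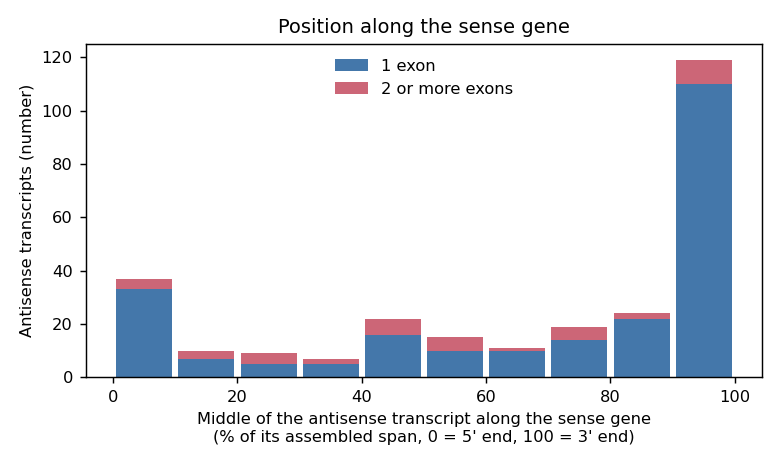
The plot of position along the sense gene gives the number of partnered models by the place of their middle (% of the assembled span, from the 5′ to the 3′ end), divided into single-exon and spliced models. The last bar of 10 holds 110 single-exon and 9 spliced models, and the 59 models with a middle outside the span are not drawn.

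Most partnered models stayed within the ends of the gene. Neither end was covered by 204 (61.4%), the 3′ end alone by 77 (23.2%), the 5′ end alone by 40 (12%) and both by 11 (3.31%). In all, 88 models (26.5%) covered the last base of the partner and 51 (15.4%) the first. Single-exon models over partner transcripts with 2 or more exons numbered 226. Of these, 219 overlapped exactly 1 exon, 101 (44.7%) lay inside it, and 7 (3.1%) spanned a whole intron of the partner transcript.

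Some models began near the assembled end of another gene on their own strand. Within 5 kb downstream of a named gene on the same strand lay 79 models (11.4%), of which 19 were within 1 kb, and a further 27 overlapped the span of such a gene. Among models that covered the 3′ end of their partner the share was 16 of 88 (18.2%), against 26 of 244 (10.7%) of the others. The closest was a 207-bp model over the last exon of Zfp335, 61 bp past Pcif1, an mRNA cap methyltransferase (RGD1310800 in the annotation). A model of 304 bp with Samd4b as its reference gene lay 257 bp past Paf1, a subunit of an elongation complex. Past Alox5, the lipoxygenase that starts leukotriene synthesis, a model of 453 bp lay at 590 bp and the Marchf8 model described above at 1869 bp.

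Partner genes were larger than other named genes. Since a partner was defined by exon overlap, the call is not independent of the size of a gene. The 325 partners had a median of 3 transcripts, 2427 bp of exon and a span of 20675 bp, against 2 transcripts, 1480 bp and 14038 bp in the other 12243. A transcript with the full reference intron chain was assembled for 37.2% of partners and 38.6% of the others, and a transcript shared by both assemblies for 28% and 30.9%. Locus names that begin with rCG made up 36.9% and 35.5%. By chromosome, antisense models per 100 named genes ran from 3.94 on chromosome 11 (13 models) to 9.36 on chromosome 12 (41 models). Chromosome 1 had the most models, 83, or 5.2 per 100 named genes, and chromosome X had 18.

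The largest overlap was that of a single exon of 10899 bp on chromosome 7 (104240654 to 104251552, plus strand, first assembly), of which 10760 bp lay over exons of rCG_59523. The next 4 belonged to 1 locus on chromosome 1 (203407514 to 203423406, minus strand). This locus held 7 antisense models with 3 or 4 exons each, of 7817 to 10904 bp, all from the second assembly. Each of the 7 overlapped both rCG_48165 and rCG_47672, and 2 of them also rCG_47815. Their largest overlaps were 8963, 7738, 6386 and 6165 bp. With 7 models each, rCG_47672 and rCG_48165 were the partners with the most antisense models, followed by rCG_51357 with 3. These models overlap each other and are not independent.

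**Figure D4:**
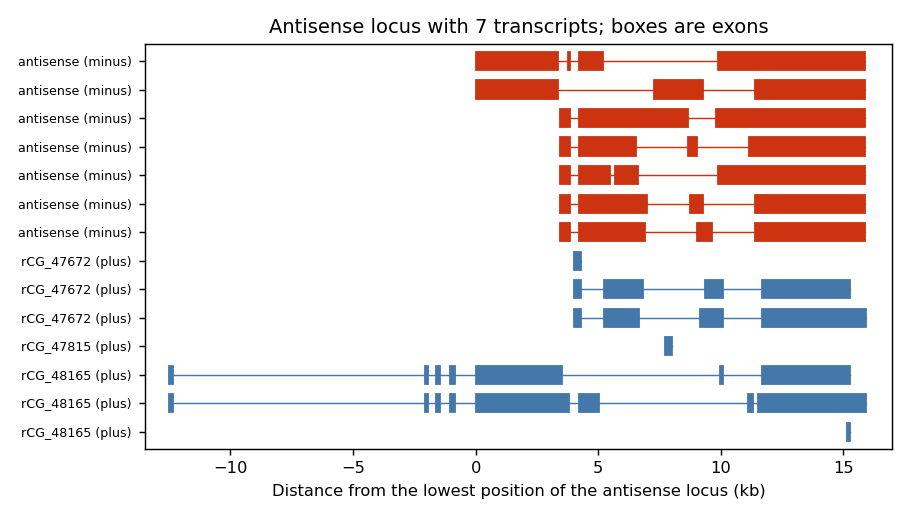
The map of the antisense locus with 7 transcripts gives exons (boxes) and introns (lines) of the antisense models and of the opposite-strand transcripts of rCG_47672, rCG_47815 and rCG_48165, by distance (kb) from the lowest position of the locus. The 7 antisense models overlap transcripts of rCG_48165 and rCG_47672 and share their highest end.

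Among partners with a symbol, chosen here after their values were seen, Mgll, the lipase of monoacylglycerols, was overlapped over 2528 bp (chromosome 4, 110244753 to 110247280, minus strand). Dag1, dystroglycan, a receptor for the extracellular matrix, was overlapped over 2523 of 2525 bp in the last of 3 exons (chromosome 8, 108197528 to 108200052, plus strand). Kdm6b (Jmjd3 in the annotation), a histone H3 demethylase, was overlapped over 2482 of 2569 bp, in the first 2 of 9 exons (chromosome 10, 53282445 to 53285013, plus strand). Each of these models had 1 exon, and the Mgll and Dag1 models came from the second assembly and the Kdm6b model from the first.

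Genes were read from 11 lists with 193 distinct genes, of which 118 had a named transcript. Besides bone, marrow and muscle, the lists covered steroid response, textbook antisense pairs, histone and ribosomal genes and genes the study names. Of these 118, 5 were partners of an antisense model, and 7 of the listed genes were named as reference gene by the comparison. No partner was found among the 18 osteoblast and osteocyte markers, the 7 osteoclast markers, the 18 genes of bone matrix and cartilage, the 13 myeloid markers, the 10 lymphocyte markers or 8 genes that the text of the study discusses. The share of partners over all named genes was 2.59%. Muscle, erythroid, steroid hormone, textbook antisense and histone or ribosomal lists had 1 partner each.

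Tpm1, a tropomyosin of the thin filament, had a 2-exon antisense model of 228 bp from the second assembly that lay wholly over exons 1 and 2 of 10 (chromosome 8, 74042074 to 74043385, minus strand). Slc4a1, the anion exchanger of the red cell membrane, had a 1565-bp model from the first assembly that lay wholly over a single-exon sense model and covered the 3′ end (chromosome 10, 86018849 to 86020413, plus strand). Nr3c1, the glucocorticoid receptor, had 502 bp over exon 2 of 5 (chromosome 18, 30992646 to 30993147, plus strand, first assembly). Zeb2 (Zfhx1b in the annotation), a transcriptional repressor whose locus has a well-known antisense RNA, had 218 bp over exon 3 of 10 (chromosome 3, 27560960 to 27561177, plus strand, first assembly). The model over Hist1h4b, a histone H4 gene, had 351 bp (second assembly), and it is uncertain because histone H4 genes are near-identical copies.

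For 2 bone genes the antisense model named them as reference gene without touching an assembled exon. Col1a2, a chain of type I collagen, had a model of 259 bp that lay 3625 bp before its assembled 5′ end (chromosome 4, 27947703 to 27947961, minus strand) and was recorded in both assemblies. Phex, a peptidase of osteocytes that takes part in phosphate balance, had 556 bp that lay 3379 bp beyond its assembled 3′ end (chromosome X, 38471866 to 38472421, minus strand, second assembly).

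Further groups of partners were put together after the values were seen and are given as examples. In platelets and coagulation there were 5 genes. Gp5, a subunit of the platelet receptor for von Willebrand factor, was overlapped over 2104 of 2348 bp across its 3′ end (second assembly). Mpig6b (G6b), an inhibitory receptor of platelets, was overlapped over all 1604 bp of its model, in exon 5 of 5 (first assembly). For F13a1, the A chain of coagulation factor XIII, the overlap was 1076 bp in exon 15 of 15 (first assembly). The F5 model had 2 exons with 884 bp, all over exon 3 of 15 (second assembly). Rgs18, a regulator of G protein signalling in platelets, had 224 bp. In 3 of the 5 genes the last exon was overlapped, and none of the 5 models was recorded in both assemblies. Over all 332 partnered models 52.4% overlapped the last exon and 10 were recorded in both assemblies. The counts of these picked genes therefore describe only the genes named.

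In skeletal signalling and matrix there were 12 such genes, with the last exon overlapped in 6 and the first in 4. The shares over all partnered models were 52.4% and 21.4%. Prelp, a leucine-rich repeat protein of cartilage matrix, had the longest overlap, 2263 bp. Olfml3, a secreted matrix protein, had 847 bp in its last exon, and Rara, a retinoic acid receptor, had 601 of 625 bp across its 3′ end. Ets1, a transcription factor, had 777 of 1174 bp. Foxo1 (Foxo1a in the annotation), a forkhead factor under insulin control, had 326 bp in its last exon. Jag1, a Notch ligand, had 182 of 472 bp over its start. Id2, Sema4d, Fbln2, Slc20a2, Cspg4 and Map2k6 had 185 to 381 bp.

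Chromatin regulators gave 6 further examples, and here the first exon was overlapped in 5 and the last in 1. Over all partnered models the shares were 21.4% and 52.4%, and these 6 were picked after their values were seen. Besides Ep300 and Kdm6b, Brpf3 had 495 bp, Kdm4a (Jmjd2a) 215 bp, Chaf1b, a subunit of the histone chaperone of DNA replication, 320 of 427 bp, and Uhrf2 88 of 208 bp. Nuclear transport gave 5 partners with 6 models. Kpna1, an importin alpha, had 2 models over its last exon, with 445 of 764 bp and 342 bp, both from the first assembly. The overlaps were 265 bp for Xpo4, 605 bp for Ipo13, 234 bp for Ahctf1 and 69 bp for Nup98. Of these models, 1, that of Ahctf1, was recorded in both assemblies.

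The 175 spliced models (25.3%) had 250 introns, of 20 to 142781 bp with a median of 1947 bp. Introns under 50 bp, shorter than nearly all introns known to be spliced, numbered 33 (13.2%), 1 in each of 33 models, so that 142 models had introns of 50 bp or more only. In models with a new junction in a known gene 0.0682% of 58655 introns were that short, as were 3.55% of 1633 introns between genes and 36.2% of 910 in models inside introns. Splice site letters were not read, as no genome was used here.

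**Figure D5:**
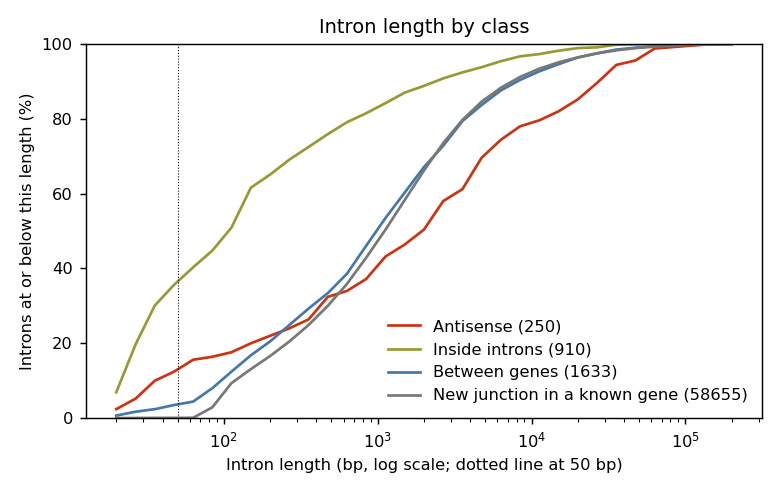
The plot of intron length by class gives the share of introns (%) at or below each length (bp, log scale), with the number of introns in the key and a dotted line at 50 bp. Antisense introns are both more often under 50 bp (13.2%) than those between genes (3.55%) and longer at the median (1947 bp).

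Spliced models had a named partner less often than single-exon ones, 61 of 175 (34.9%) against 271 of 516 (52.5%). The 5 with the most exons had no partner. They had 13 exons and 1612 bp on chromosome 12 (45429687 to 45508580, plus strand, reference gene rCG_21884), 9 exons and 1513 bp on chromosome 7 (106779806 to 106785278, plus strand, rCG_60219), and 8 exons and 690 bp on chromosome 16 (6919034 to 6966230, plus strand, Lrrc18, named RGD1311738). The other two had 7 exons and 749 bp on chromosome 10 (13681534 to 13693062, minus strand, rCG_35169) and 6 exons and 463 bp on chromosome 8 (31902785 to 32055031, plus strand, rCG_22776). The first of them came from the first assembly and the others from the second.

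An intron with the same ends on both strands was found in 7 spliced models. The splice sites of an intron differ between its strands, and the cause of such shared ends was not tested. The longest was in Lamp2, a lysosomal membrane protein, where a 2-exon antisense model of 207 bp lay wholly over exons 1 and 2 of 9 (chromosome X, 116422041 to 116436272, plus strand, second assembly) and had the 14025-bp intron of a sense transcript. Sirpa (Ptpns1 in the annotation), the receptor for CD47, shared an intron of 340 bp and rCG_49900 one of 944 bp. Amotl1, a junction protein, shared one of 30 bp, rCG_63447 one of 25 bp, rCG_55879 one of 20 bp and rCG_51357 one of 85 bp. In 6 of the 7 the sense transcript had a junction that is new to the reference, and none of the 7 came from a sense model with the full reference chain. Of the shared introns, 3 were under 50 bp.

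Beside the antisense models stands the authors' list of 1507 new genes. None of the 666 antisense loci is on it, and all 1507 listed loci hold only models between genes or in repeats. None of the 691 models carries a gene name, and 653 of the loci hold antisense models alone, while 13 also hold other classes and 18 hold more than 1 antisense model.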

How the data were processed

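Total RNA was extracted by the authors from rat femurs with TRIzol and made into libraries with a SMARTER mRNA kit. The submitters' processing notes name FastQC, HISAT2, StringTie, featureCounts and the build rn4, without versions or order, and the attributes of the deposited transcripts have the form that gffcompare gives. Whether the sequences are those of rn4 could not be checked here, so positions are printed 1-based as the deposited file gives them. The sequences were assigned to chromosomes by the genes on them, with 5292 of 5340 genes (99.1%) on the main chromosome of their sequence.

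Models of the antisense class were joined to their exons by transcript name. A partner was a named gene on the opposite strand with at least 1 bp of exon overlap, and the reference gene is that named by the authors' comparison. Names were matched to GRCr8 symbols for 376 of 691 models, 256 through a current and 120 through an older symbol. Assemblies were read from the numbering of models. The members, lists and rules were chosen with earlier results of these data known. The genes named are the 5 models with the most exons, the 5 with the largest overlap, the 5 longest recorded in both assemblies, the 3 partners with the most models, partners on the lists and shared introns, up to 5 by number shared. As all tied at 1 shared intron, all 7 are given; other names were chosen after values were seen, and some items are not reported here. Overlaps were tested on simulated intervals. No comparison of samples and no test was possible. Python 3.11.15, numpy 2.4.6, scipy 1.17.1 and matplotlib 3.10.9 were used.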

Additional observations from a re-analysis of the deposited data

How the results depend on the processing

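The 691 antisense models were 175 when 2 or more exons were asked for, 30 when both assemblies were, and 233 with 500 bp of exon or more, each by construction, and 666 loci were counted. Models with a partner fell from 332 to 111 when the overlap had to be with a full-chain transcript. They numbered 321 with 50 bp of overlap, 253 with 200 bp and 385 by overlap of spans. The share in both assemblies was 4.34%, and 6.29% for spliced models and 6.31% for loci with a model from each assembly. The share with a single exon was 74.7%, 63.3% for models in both assemblies and 81.6% for partnered ones. The 3′ end was covered by 26.5% of partnered models, 16.4% of the 61 spliced ones and 29.2% against the end of the best partner transcript. The 5′ end was covered by 15.4%, 11.5% and 21.1%. The 3′ end was thus covered more often in each, though the shares of spliced models rest on few models. The 7 shared introns stayed 7 with a tolerance of 10 bp. No paired analysis was possible because samples have no values here. The strand of the libraries, the depth and the rats behind each assembly are unknown here, and an absent partner can be a gene that was not assembled.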
